A study of Mus musculus with 10 samples.

Results

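The 8 genes described here encode enzymes of glycolysis and of the lactate step that follows it: Gpi1, Pfkl, Aldoa, Gapdh, Pgk1, Pgam1, Pkm and Ldha. They were taken by symbol from a table of mouse transcripts, where they are 8 of 6610 gene symbols and 15 of 13128 rows, each row being 1 RefSeq transcript. All 8 passed the filter on low values (at least 1 TPM in at least 2 libraries), as did 4427 symbols in all. Rows were picked by symbol and not by their values, but the 8 members were chosen with earlier results of these data known.

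The study sequenced ribosome-depleted total RNA of C57BL/6 mouse splenic B cells in 10 libraries, 2 for each of 5 groups. Its question was what accompanies divisions of B cells that depend on a mitogen (Phase I) and those that do not (Phase II). In Phase I, naive cells were compared with cells given a pulse of anti-IgM and anti-CD40 antibodies, which act through the B cell receptor and the CD40 co-receptor, and taken at 48 h as undivided (div0) or divided (div12). In Phase II, div12 cells spent another 48 h with anti-CD40 at 0.12 µg/ml, and flow cytometry then separated those without a new division (div12_48_u) from those with one (div12_48_d). Every activated group thus received both antibodies, and both Phase II groups descend from divided cells. Phase I replicates were pools of 4 to 5 mice and RNA came from 1000000 cells, against 500000 in Phase II, where the labels used here do not say whether replicates were pools. Phase, time in culture and cell input cannot be told apart.

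Glycolysis splits glucose into pyruvate in the cytosol and yields ATP without oxygen. Gpi1 isomerises glucose 6-phosphate, Pfkl is the liver-type subunit of phosphofructokinase, which commits the sugar to the pathway, and Aldoa cleaves the product into triose phosphates. Gapdh then reduces NAD+ to NADH, Pgk1 makes the first ATP, Pgam1 moves the phosphate, Pkm makes ATP and pyruvate, and Ldha turns pyruvate into lactate while restoring NAD+. Resting lymphocytes use little glucose, and activated lymphocytes are known for raised glycolysis and lactate output before and during proliferation. The transcription factors Myc and Hif1 are textbook activators of these genes.

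In the assembly GRCm38.p6, Gapdh lies at chr6:125161852-125166467, Pgk1 at chrX:106187100-106203699, Pgam1 at chr19:41911871-41918665 and Pkm at chr9:59656576-59679372. Ldha, Aldoa and Gpi1 all lie on chromosome 7, at chr7:46842274-46855627, chr7:126795234-126800994 and chr7:34201327-34230336, and Pfkl lies at chr10:77986947-78009807. Pgk1, Pgam1 and Gpi1 each have 1 row in the table, and the other 5 have 2 or 3. Mouse carries processed pseudogenes of several of these genes, and how reads shared between such copies were assigned is not given in the sources used here, so a level may include or lack some of those reads.

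Pkm is the member whose rows differ in a known functional way, and its 2 rows are told apart by the following pair of mutually exclusive coding exons. Each exon has 167 bases and is exon 9 of its own transcript in the GENCODE annotation, with 8 internal exons shared. NM_011099 encodes the M2 enzyme, which is regulated by metabolites, and uses chr9:59675568-59675734 on the plus strand. NM_001253883 encodes the M1 enzyme, which is constitutively active, and uses chr9:59675029-59675195. Capitals mark the 64 aligned positions where the exons differ, which leaves 61.7% identical.
M2 exon of NM_011099: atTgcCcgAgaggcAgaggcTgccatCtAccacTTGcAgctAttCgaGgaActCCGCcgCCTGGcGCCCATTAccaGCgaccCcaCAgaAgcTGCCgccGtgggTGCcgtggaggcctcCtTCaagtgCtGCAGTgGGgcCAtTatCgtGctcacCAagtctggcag
M1 exon of NM_001253883: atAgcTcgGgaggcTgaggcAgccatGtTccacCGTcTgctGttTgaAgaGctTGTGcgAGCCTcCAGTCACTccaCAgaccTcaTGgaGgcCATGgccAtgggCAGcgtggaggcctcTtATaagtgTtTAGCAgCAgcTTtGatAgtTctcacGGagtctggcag

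As examples, the 250 bases before the RefSeq starts of Pgk1, Pgam1 and Ldha (RefSeq, GRCm38.p6) are shown, chosen because they hold several of the matches described here. Gapdh, Pkm and Gpi1 also rose from naive to div0 and to div12, and their windows hold fewer or other matches. Gpi1 did not pass between divided and undivided cells in either phase. Aldoa passed as higher than naive in div0 but not in div12. The promoter table held all 8 symbols. Capitals mark matches, on either strand, to ACGTG and GCGTG, the cores bound by Hif1. CACGTG, the E box bound by Myc with Max, contains ACGTG on both strands and is marked with it.
Pgk1, chrX:106186850-106187099, plus strand: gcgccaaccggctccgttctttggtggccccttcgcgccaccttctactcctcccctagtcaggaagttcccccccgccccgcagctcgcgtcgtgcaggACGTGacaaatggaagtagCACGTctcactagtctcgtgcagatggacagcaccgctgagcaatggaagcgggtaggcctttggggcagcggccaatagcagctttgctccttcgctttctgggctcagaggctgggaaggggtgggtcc
Pgam1, chr19:41911621-41911870, plus strand: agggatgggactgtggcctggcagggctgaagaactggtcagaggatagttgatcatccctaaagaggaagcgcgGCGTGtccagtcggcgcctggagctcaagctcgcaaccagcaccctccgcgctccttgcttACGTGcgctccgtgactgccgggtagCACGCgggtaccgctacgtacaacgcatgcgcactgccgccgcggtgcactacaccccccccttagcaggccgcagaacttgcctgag
Ldha, chr7:46845554-46845803, plus strand: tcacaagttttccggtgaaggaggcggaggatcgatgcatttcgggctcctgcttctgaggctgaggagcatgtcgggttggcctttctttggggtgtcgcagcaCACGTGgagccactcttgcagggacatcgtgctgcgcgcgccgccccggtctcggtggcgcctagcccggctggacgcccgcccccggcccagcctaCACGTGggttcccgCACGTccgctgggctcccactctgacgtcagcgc
The Pgk1 window held 2 ACGTG matches, 150 and 131 bases before the start. Pgam1 had 1 ACGTG and 2 GCGTG, and the first Ldha window had 2 CACGTG, each read once per strand, and 1 further ACGTG. Of 32851 RefSeq windows of 250 bases in the mouse table, 38.6% held ACGTG or GCGTG, 16.6% ACGTG and 6.02% CACGTG. Among windows of the 8 genes, CACGTG stood in that Ldha window only. Neither core was found in the Gpi1 window or in the first Aldoa and Pkm windows. That first Aldoa window lies 1193 bases from the GENCODE start of its most abundant row. The Aldoa window at that GENCODE start held 1 ACGTG, as did the second Pkm window. The Gapdh window, 694 bases from the GENCODE start of its most abundant row, held 2 GCGTG. That of Pfkl, which did not rise, held 1 GCGTG. These matches describe letters, and binding was not measured.

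All values are TPM (each transcript's length-scaled share of its library), summed here by symbol. TPM adds up to 1000000 per library, keeps no read count, and so gives no depth or counting interval. Differences are log2 fold changes of TPM + 1 from limma, fitted over all 10 libraries, with Benjamini-Hochberg adjusted p over 4427 genes and a threshold of 0.05. Naive libraries differed most from each other (340 genes over 2-fold apart, against 33 to 65 in the other groups), but no member differed by more than 0.11 on the log2 scale between them. The largest gap between replicates of a member was 0.39, for Pgam1 in div12. The median gene was lower in div0 and div12 than in naive by log2 changes of -0.24 and -0.35, and median-ratio scaling brought both close to 0 (-0.03 and -0.04).

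B cell markers were present in every library, with 6 of 8 listed genes in the table summing to 21764 to 23013 TPM in naive and 14065 to 18988 TPM in activated libraries. Naive libraries also carried other cells' transcripts. Of the erythroid list 4 of 8 genes were in the table, with a sum of 2676 to 3196 TPM in naive and 10.9 to 43.5 TPM in activated libraries. Myeloid markers (9 of 10) summed to 607 to 2006 TPM in naive and 44.7 to 210.3 TPM in activated libraries, where C1qa was at 0. In both Phase II groups 8 of the 9 were lower than in naive and 1 was higher, Adgre1. Its mean was 44.5 TPM in naive, 105 in div12_48_u and 171 in div12_48_d. T cell markers (5 of 8) stood at 43.8 to 47.2 against 6.40 to 11.99 TPM, and immediate early genes (8 of 10) at 6248 to 9091 against 276 to 1984 TPM.

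Gapdh was the most abundant member in every library and Pfkl the least. Over all libraries Gapdh ranked 34 of 6610 symbols by mean TPM, Aldoa 99, Pkm 145, Ldha 171, Gpi1 200, Pgk1 244, Pgam1 387 and Pfkl 1840. The 8 genes together took 5337 and 5442 TPM in naive libraries, 8596 and 9610.2 in div0, 13032 and 12118 in div12, 8009 and 7667 in div12_48_u, and 12171 and 11206 in div12_48_d. All div12 and div12_48_d libraries thus lay above every naive, div0 and div12_48_u library. Gapdh alone made up 41.5% and 40.5% of that sum in naive and 59.2% and 60.4% in div12. Without it the other 7 genes summed to 3119.8 and 3239 TPM in naive and 5323 and 4795 in div12, and to 4520.0 and 4526 in div12_48_u against 5522 and 5414 in div12_48_d.

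**Figure D1:**
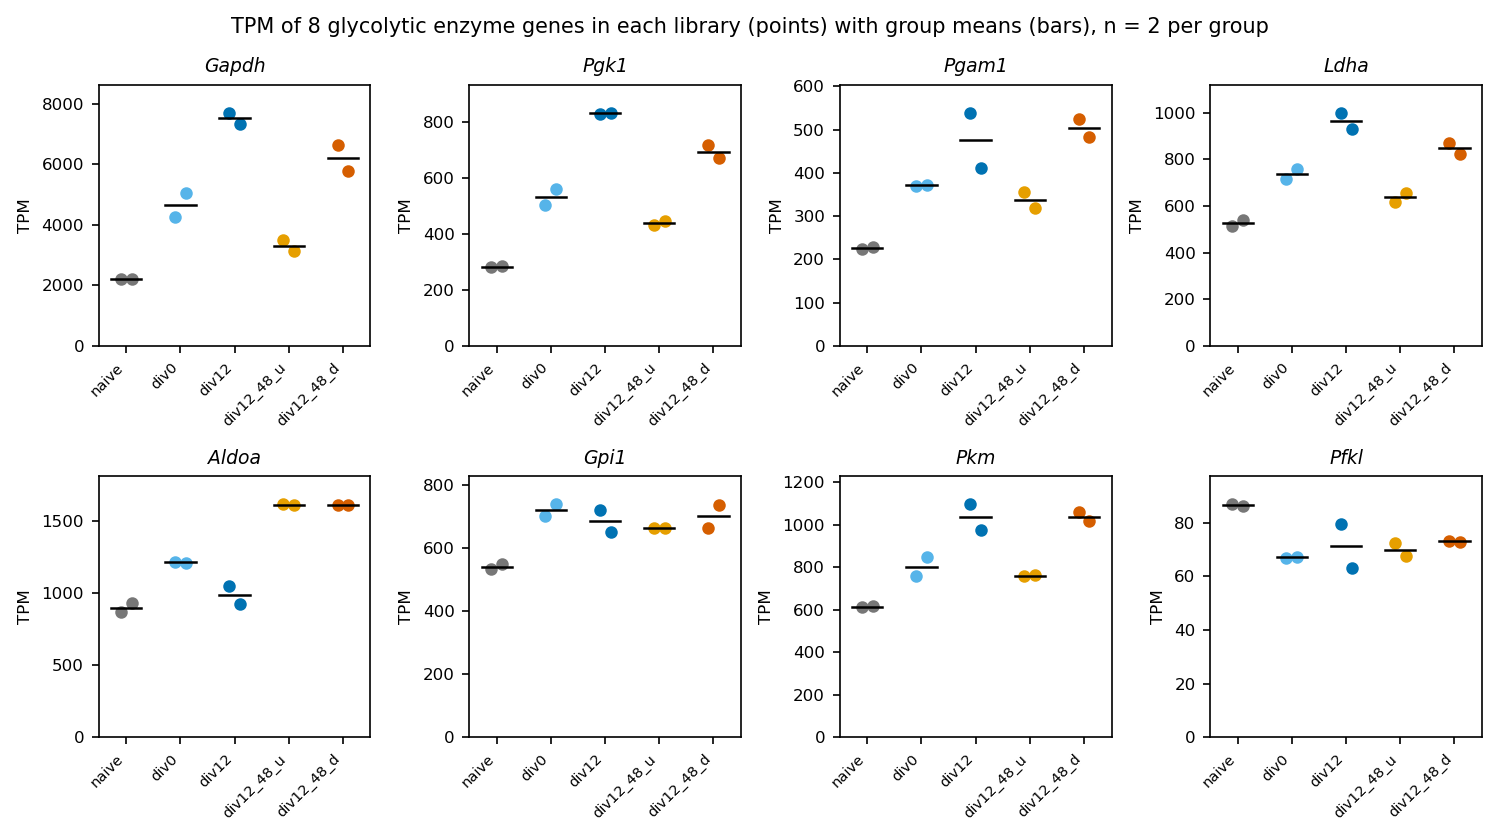
TPM of each glycolytic gene (vertical axis, from 0, own scale per panel) in the 10 libraries by group (horizontal axis); points are libraries and bars are group means. Gapdh runs from 2203 TPM in a naive library to 7709 TPM in a div12 library, Aldoa is highest in both Phase II groups, and Pfkl stays between 63.1 and 86.9 TPM.

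Most of the 8 transcripts were higher in activated than in naive cells. The labels give no culture time for naive cells, so activation and time in culture cannot be told apart here. Between naive and div0 cells, before any division, all 8 passed the test, 7 higher and 1 lower, where 54.9% of tested genes passed in either direction, 15.4% higher and 39.6% lower. Between naive and div12 cells 6 passed, all higher, where 66.9% of genes passed, 19.4% higher and 47.5% lower. Median-ratio scaling moved the split over all genes from 680 higher and 1751 lower to 1130 and 1165 in div0, and from 858 and 2104 to 1388 and 1457 in div12. The 2 comparisons share the naive libraries.

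Gapdh, the enzyme of the oxidation step, was listed at 2218 and 2203 TPM in naive, 4264 and 5054 in div0 and 7709 and 7323 in div12 libraries. The 3 groups did not overlap, as was so for 79.5% of all genes between div0 and naive and 80.5% between div12 and naive. Its log2 change from naive was 1.07 (SE 0.11, adjusted p = 1.35e-04) in div0 and 1.76 (adjusted p = 6.41e-06) in div12, about 3.40-fold. Pgk1, which acts next, stood at 281 and 284 TPM in naive, 503 and 561 in div0 and 831 and 835 in div12. It rose by 0.91 in div0 (SE 0.08, adjusted p = 5.8e-05) and by 1.56 in div12, again with no overlap. Pgam1 was listed at 224 and 228 TPM in naive, 369.8 and 373 in div0 and 539.8 and 412 in div12, with log2 changes of 0.71 (adjusted p = 0.00184) and 1.06.

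At the lower end of the pathway Pkm and Ldha also rose, with smaller estimates. Pkm was at 611 and 618 TPM in naive, 759 and 847 in div0 and 1097 and 974 in div12, and changed by 0.38 (SE 0.08, adjusted p = 0.00548) and 0.75. Without div0 replicate 2 the first of these had an adjusted p of 0.0539. Ldha stood at 516 and 539.5 TPM in naive, 715 and 760.1 in div0 and 1001 and 932 in div12, with changes of 0.48 (adjusted p = 0.00121) and 0.87. Neither gene had a div0 or div12 library at or below a naive one.

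Of the 3 enzymes before Gapdh, Gpi1 rose in both groups, Aldoa passed in div0 alone and Pfkl was lower. Gpi1 was at 535 and 549 TPM in naive, 702 and 741 in div0 and 722 and 652 in div12, and was higher by 0.41 (adjusted p = 0.00332) and 0.34. Aldoa was at 866 and 934 TPM in naive and 1216 and 1208 in div0, a rise of 0.43 (adjusted p = 0.00244), but at 1052 and 927 in div12, where 1 library lay within the naive range. The Aldoa difference between div12 and naive was 0.14 (95% interval -0.05 to 0.32, adjusted p = 0.161), and it passed with median-ratio scaling (0.47, adjusted p = 6.84e-04), with quantile normalization (0.29, adjusted p = 0.0137) and without div12 replicate 2 (0.23, adjusted p = 0.0458). Pfkl alone was lower, with 86.9 and 86.3 TPM in naive, 66.8 and 67.3 in div0 and 79.3 and 63.1 in div12.

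The Pfkl change was -0.36 (SE 0.11, adjusted p = 0.0253) in div0 and -0.29 (adjusted p = 0.0501) in div12. The first was lost with median-ratio scaling (-0.14, adjusted p = 0.241), with quantile normalization (-0.19, adjusted p = 0.103) and without naive replicate 1, naive replicate 2, div0 replicate 1 or div0 replicate 2 (adjusted p = 0.0630, 0.0579, 0.103 and 0.0997). Over the 8 genes the median change was 0.46 in div0 and 0.81 in div12, beside -0.24 and -0.35 over all genes. Erythroid, myeloid and immediate early transcripts fell in the same comparisons, and their part in these differences was not tested. In bulk RNA fewer cells of a type and less RNA per cell cannot be told apart.

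Within the same 48 h culture, div12 cells that had divided carried more Gapdh, Pgk1, Ldha and Pkm than undivided div0 cells. These 4 of 8 passed the test, all higher, where 8.76% of genes passed, 3.68% higher and 5.08% lower. Gapdh was higher by 0.69 (SE 0.11, adjusted p = 0.0153), Pgk1 by 0.65 (adjusted p = 0.0109), Ldha by 0.39 (adjusted p = 0.0271) and Pkm by 0.37 (adjusted p = 0.0371). For none of the 4 did a div0 library reach a div12 library, and 65.9% of all genes had no overlap between these groups. Over all genes the split of 163 higher and 225 lower became 331 and 188 with median-ratio scaling.

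Pgam1, between them in the pathway, differed by 0.34 (95% interval 0.06 to 0.63, adjusted p = 0.113) and passed with median-ratio scaling (0.45, adjusted p = 0.0322). Aldoa was at 1052 and 927 TPM in div12, below both div0 libraries, a difference of -0.30 (adjusted p = 0.0528) that passed with quantile normalization (-0.37, adjusted p = 0.0337), with the 5 TPM filter (0.0458), without the naive group (0.0384), without either naive library (0.0389 for both) and with the most abundant row (0.0477). Gpi1 differed by -0.07 (95% interval -0.26 to 0.11) and Pfkl by 0.08 (-0.18 to 0.34). The median over the 8 genes was 0.36, beside -0.07 over all genes.

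These Phase I division calls rest on every compared library. Without div0 replicate 1, div0 replicate 2 or div12 replicate 2 none of the 8 genes passed, and without div12 replicate 1 only Pgk1 did. The adjusted p of Gapdh was then 0.171, 0.0570, 0.0926 and 0.0527, in that order of libraries, and that of Ldha 0.232, 0.107, 0.0930 and 0.0674. For Pgk1 it was 0.147, 0.0570 and 0.0761 without the first 3, and for Pkm 0.268, 0.103, 0.0930 and 0.101. The fold changes kept their direction, Gapdh between 0.57 and 0.82. Pkm also missed the threshold without div12_48_u replicate 1 or 2 or div12_48_d replicate 1 (adjusted p = 0.0582, 0.0585 and 0.0501), and Ldha with quantile normalization (0.0622).

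In the low anti-CD40 culture of Phase II, cells that divided again (div12_48_d) held more Gapdh, Pgk1, Pgam1, Pkm and Ldha than cells that did not (div12_48_u). Gapdh, Pgk1, Pgam1, Pkm and Ldha passed, 5 of 8 and all higher, where 25.6% of genes passed, 12.2% higher and 13.4% lower. Gapdh was at 3488 and 3141 TPM in div12_48_u and 6649 and 5792 in div12_48_d, a change of 0.91 (SE 0.11, adjusted p = 0.00128), or 1.87-fold. Pgk1 was at 434 and 445 against 717 and 672 TPM, a change of 0.66 (adjusted p = 0.00111). Both genes were well separated between the groups.

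Pgam1 stood at 356 and 319 TPM in div12_48_u and 525 and 484 in div12_48_d, a change of 0.58 (SE 0.12, adjusted p = 0.0117). Pkm was at 759 and 763 against 1059 and 1017 TPM, higher by 0.45 (adjusted p = 0.00736), and Ldha at 616 and 658 against 873 and 825 TPM, higher by 0.41 (adjusted p = 0.00698). No library of one group reached the other for these enzymes, as was so for 68.7% of all genes. Without div12_48_d replicate 1 only Gapdh and Pgk1 passed, with adjusted p of 0.0907 for Pgam1, 0.0620 for Pkm and 0.0613 for Ldha. Pgam1 also missed the threshold without div12_48_u replicate 2 (adjusted p = 0.0726).

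The other 3 of the 8 genes, Aldoa, Gpi1 and Pfkl, did not pass. Aldoa was at 1618 and 1610.0 TPM in div12_48_u and 1609 and 1607 in div12_48_d, a difference of -0.00 with a 95% interval of -0.19 to 0.18. Gpi1 was at 666 and 663 against 666 and 737 TPM, a difference of 0.08 (-0.11 to 0.26), and Pfkl at 72.3 and 67.5 against 73.0 and 72.9 TPM, a difference of 0.06 (-0.20 to 0.32). The median over the 8 genes was 0.43, beside -0.08 over all genes, and the split over all genes of 540 higher and 594 lower became 669 and 492 with median-ratio scaling. Plasma cell markers (6 of 6 tested) summed to 458 to 480.1 TPM in div12_48_u and 972 to 1193 TPM in div12_48_d. Of these 6, 3 passed as higher, where 12.2% of all genes did. Jchain took much of the gain, with means of 27.8 and 421 TPM, and only Sdc1 had a lower mean in div12_48_d (13.3 against 19.9 TPM). The part of these markers in the enzyme differences was not tested.

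**Figure D2:**
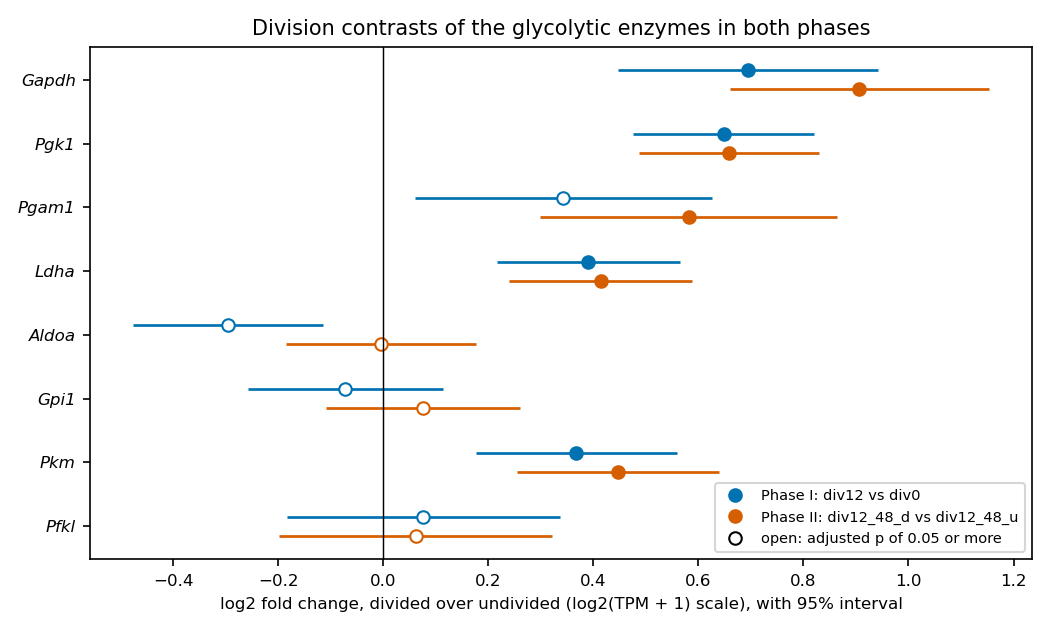
Log2 fold change of TPM + 1 between divided and undivided cells (horizontal axis) for each of the 8 genes (vertical axis), in Phase I (div12 against div0) and Phase II (div12_48_d against div12_48_u); points are limma estimates, open where the adjusted p is 0.05 or more, and bars their 95% intervals. Gapdh and Pgk1 lie furthest to the right in both phases (0.69 and 0.65, then 0.91 and 0.66), while Gpi1 and Pfkl lie near 0.

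The division difference itself was compared between phases, as (div12_48_d minus div12_48_u) minus (div12 minus div0). None of the 8 genes passed in limma, where 0.0% of 4427 genes did. At an unadjusted p under 0.05 there were 438 genes, 1 of them among the 8. That gene was Aldoa, at 0.29 (95% interval 0.03 to 0.55, unadjusted p = 0.0304, adjusted p = 0.405). The estimate was 0.21 for Gapdh (-0.14 to 0.56), 0.24 for Pgam1 (-0.16 to 0.64), 0.08 for Pkm (-0.19 to 0.35), 0.02 for Ldha (-0.22 to 0.27) and 0.01 for Pgk1 (-0.23 to 0.25). Intervals of this width leave room for phase differences of up to about 0.25 for Pgk1 and 0.56 for Gapdh. Median-ratio scaling called 16 genes higher and 7 lower and quantile normalization 6 and 2, none of them among the 8.

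Cells that did not divide again in Phase II had less Gapdh, Pgk1, Ldha, Pgam1 and Pkm than the div12 cells they came from, and more Aldoa. Between div12_48_u and div12, 6 of 8 passed, 5 lower and 1 higher, where 41.3% of genes passed, 27.7% higher and 13.6% lower. Gapdh fell by 1.18 (SE 0.11, adjusted p = 1.99e-04), Pgk1 by 0.92, Ldha by 0.60, Pgam1 by 0.48 (adjusted p = 0.0144) and Pkm by 0.44 (adjusted p = 0.00394). Aldoa went the other way, from 1052 and 927 TPM to 1618 and 1610.0 TPM, a rise of 0.71 (SE 0.08, adjusted p = 4.1e-04). The median over the 8 genes was -0.46, against 0.16 over all genes. With median-ratio scaling the split over all genes went from 1225 higher and 603 lower to 816 and 952, and Gpi1 also passed as lower (-0.24, adjusted p = 0.0311). Pgam1 missed the threshold without div12 replicate 1 or div12_48_u replicate 2 (adjusted p = 0.0587 and 0.0871). Immediate early genes were higher in the same comparison (5 of 8, sums of 276 to 398 TPM in div12 and 1868 to 1984 in div12_48_u), as were 4 of 6 B cell markers and 2 of 6 plasma cell markers, and their part in these differences was not tested.

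Fewer of the 8 genes passed for the cells that divided again. Between div12_48_d and div12, Aldoa rose by 0.70 (SE 0.08, adjusted p = 0.00116) and Pgk1 was lower by a change of -0.26 (adjusted p = 0.0480), which makes 2 of 8, where 15.9% of genes passed, 11.9% higher and 4.09% lower. Gapdh differed by -0.28 (95% interval -0.52 to -0.03, adjusted p = 0.122) and Ldha by -0.19 (adjusted p = 0.133), while Pkm differed by 0.01 (-0.19 to 0.20). The Pgk1 call was lost without any 1 library other than a naive one (adjusted p from 0.0668 to 0.270). The split over all genes, 525 higher and 181 lower, became 442 and 428 with median-ratio scaling, where Ldha passed too (-0.31, adjusted p = 0.0438). Both Phase II groups were set against the same div12 libraries, and the Aldoa rises of 0.71 and 0.70 share them. In div12_48_d against div12, 3 of 6 plasma cell markers were higher (sums of 389 to 425 TPM in div12 and 972 to 1193 in div12_48_d), as were 4 of 8 immediate early genes (sums of 276 to 398 and 753 to 1198 TPM), and their part was not tested.

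**Figure D3:**
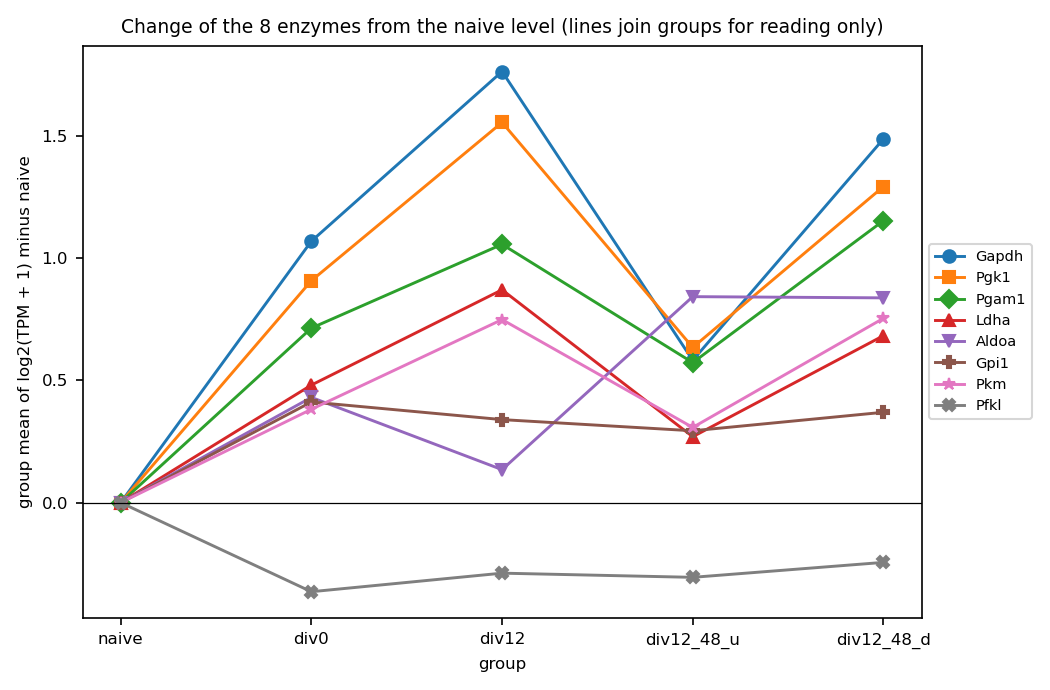
Group mean of log2(TPM + 1) minus the naive mean (vertical axis) for each of the 8 genes across the 5 groups (horizontal axis), with lines that join groups for reading only. Gapdh reaches 1.76 in div12 and falls to 0.58 in div12_48_u and 1.49 in div12_48_d, while Aldoa goes from 0.14 in div12 to 0.84 in both Phase II groups.

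The order of the groups differed between members. For Gapdh, Pgk1 and Ldha it ran div12, div12_48_d, div0, div12_48_u and naive, from high to low. Of all genes, 42.5% passed between div12_48_u and naive, 62.4% between div12_48_d and naive, 15.4% between div12_48_u and div0 and 18.5% between div12_48_d and div0. For Pgk1 all neighbouring steps passed, the smallest being div12 to div12_48_d. For Gapdh the first step did not pass (adjusted p = 0.122), and for Ldha only the last, div12_48_u to naive, did (0.27, adjusted p = 0.0210). Pgam1 and Pkm had div12_48_d and div12 at the top with no call between them, with differences of 0.10 and 0.01 and adjusted p of 0.666 and 0.988.

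In Aldoa the Phase II groups came first with no call between them, followed by div0, div12 and naive. The step from div12_48_d to div0 passed (0.41, adjusted p = 0.00909) and was lost without div0 replicate 1, div0 replicate 2 or div12_48_d replicate 1 (adjusted p = 0.0654, 0.0681 and 0.0511). In Gpi1 only the step down to naive passed (0.29, adjusted p = 0.0190), so its 4 activated groups could not be ordered, and in Pfkl no neighbouring step passed. Several of the steps that passed were lost under alternatives. Without a compared library, from div0 to div12_48_u, Gapdh had an adjusted p of up to 0.169 and Pgk1 of up to 0.314, and from div12_48_d to div0 they had 0.220 and 0.0974 without div0 replicate 1. The Pgk1 step from div0 to div12_48_u was also lost with the replicate block (0.0646), with the most abundant row (0.0597) and without any div12 or div12_48_d library (0.0558 to 0.0587), and the Gapdh step from div12_48_d to div0 with no filter (0.0601) and quantile normalization (0.0701). From div12_48_u to naive, leaving out div12_48_u replicate 2 gave 0.122 for Ldha, 0.0763 for Gpi1 and 0.0784 for Pkm.

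Relative to each other, the members with the most similar profiles were Ldha and Pkm, whose centred group means of log2(TPM + 1) differed by a root mean square of 0.076, and Gapdh and Pgk1 (0.108). Gapdh and Pfkl were furthest apart (0.722). The ratio of Gapdh to Aldoa TPM shows the divergence: it was 2.56 and 2.36 in naive, 3.51 and 4.18 in div0, 7.33 and 7.90 in div12, 2.16 and 1.95 in div12_48_u, and 4.13 and 3.60 in div12_48_d. It was highest in the div12 libraries and lowest in those of div12_48_u.

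Among 3467 other tested genes with a group mean of at least 10 TPM, the same measure over the 5 group means picked the nearest profiles. For Gapdh these were Sept10 (0.054), Tipin (0.067) and Dbi (0.092), and for Pgk1 they were Rpa2 (0.041), Ap1s1 (0.057) and Cisd1 (0.073). Pgam1 was nearest to Prdx2 (0.043), Ipo11 and Polr1c, Ldha to Ssna1 (0.018), Nme7 and Rps2, and Pkm to Uqcr11 (0.013) and Tspan3. Gpi1 was nearest to Rpl38 (0.030), Gm6570 and Poll, and those given for Pfkl are Tm9sf3 and Itsn1 (0.038). Aldoa had the most distant neighbours, Lpar6 (0.094), Tert (0.109) and Recql5 (0.117). These distances rest on 5 group means of 2 libraries each and carry no test.

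By RefSeq row, the change of a member lay mostly in 1 transcript. NM_001289726 held 99.4% to 99.9% of Gapdh and NM_010699 held 97.1% to 99.0% of Ldha. NM_007438 held 87.5% to 93.5% of Aldoa and carried most of its Phase II rise. Against div12 it rose by 0.76 in div12_48_u and 0.73 in div12_48_d (adjusted p = 7.2e-04 and 0.00158). Of 8174 rows, 23.2% and 5.87% passed there. The less abundant Aldoa row NM_001177307 also rose, by 0.82 and 1.14 (adjusted p = 0.0166 and 0.0120), from a mean of 38.4 TPM in div12. NM_001177308 did not pass. Pkm and Pfkl were the 2 members with a sizeable second row.

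Of the Pkm rows, the M2 transcript NM_011099 whose exon is printed above was listed at 514 and 531 TPM in naive, 655 and 744 in div0, 1008 and 875 in div12, 639 and 649 in div12_48_u, and 968 and 937 in div12_48_d. The M1 transcript NM_001253883 stood at 97.9 and 87.2, 103 and 102, 89.5 and 99.5, 119.9 and 115, and 91.6 and 80.2 TPM in the same order. M1 thus made up 16.0% and 14.1% of Pkm in naive, 13.6% and 12.1% in div0, 8.15% and 10.2% in div12, 15.8% and 15.0% in div12_48_u, and 8.65% and 7.89% in div12_48_d. Its share was lowest in div12 and div12_48_d.

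The M2 row rose between naive and div12 by 0.85 (SE 0.09, adjusted p = 2.71e-04, where 50.4% of rows passed). It was higher in div12_48_d than in div12_48_u by 0.56 (adjusted p = 0.0117, where 9.66% passed), and without either div12_48_u replicate or div12_48_d replicate 1 the adjusted p was 0.0665, 0.0664 and 0.0893. Between div0 and div12 it differed by 0.43 (adjusted p = 0.0740, where 0.783% passed). The M1 row was lower in div12_48_d than in div12_48_u by a change of -0.45 (adjusted p = 0.0495), a call lost in 14 of the alternatives, among them both scalings (adjusted p = 0.191 and 0.103) and each compared library (0.121 to 0.204). The log2 ratio of M2 to M1 passed in neither division comparison. It was higher by 0.55 in div12 than in div0 (95% interval 0.04 to 1.05, adjusted p = 0.523, where 0.0% of genes passed) and by 0.82 in div12 than in naive (adjusted p = 0.0518). Against naive the ratio passed in div12_48_d alone (0.97, adjusted p = 0.0381, where 8.45% of genes passed), and in div12_48_u it differed by -0.04. For the same ratio the Phase II division difference was 1.01 on the log2 scale (95% interval 0.51 to 1.51, unadjusted p = 0.00192), with an adjusted p of 0.123 over 1881 genes with several rows, of which 0.0532% passed.

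Of the Pfkl rows, 1 changed and the other did not pass in any comparison. NM_008826 was at 59.8 and 55.95 TPM in naive and between 52.9 and 73.1 TPM elsewhere, and differed from naive by -0.01 in div0 (adjusted p = 0.978). NM_001358793 stood at 27.1 and 30.4 TPM in naive, 10.1 and 8.77 in div0, 6.23 and 6.94 in div12, 14.5 and 14.6 in div12_48_u, and 10.9 and 13.0 in div12_48_d. Every activated library lay below both naive ones, and div12 was lowest.

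From naive, NM_001358793 changed by -1.51 in div0 (SE 0.18, adjusted p = 7.99e-04, where 34.1% of rows passed) and by -1.97 in div12 (adjusted p = 1.2e-04), and it rose by 1.04 from div12 to div12_48_u (adjusted p = 0.00707). None of the alternatives ended these 3 calls. Its share of Pfkl was 31.1% and 35.2% in naive and 7.85% and 11.0% in div12. The ratio of NM_008826 to NM_001358793 rose by 1.504 from naive to div0 (adjusted p = 0.0263, where 4.25% of genes passed) and by 2.11 to div12 (adjusted p = 0.00579, where 11.6% passed). The first of these was lost without naive replicate 2, div0 replicate 1 or div0 replicate 2 (adjusted p = 0.0526, 0.1215 and 0.119). The share of reads a row receives depends on how the submitters' software divided reads between transcripts, and these single-end reads of 50 bp cover few junctions each.

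**Figure D4:**
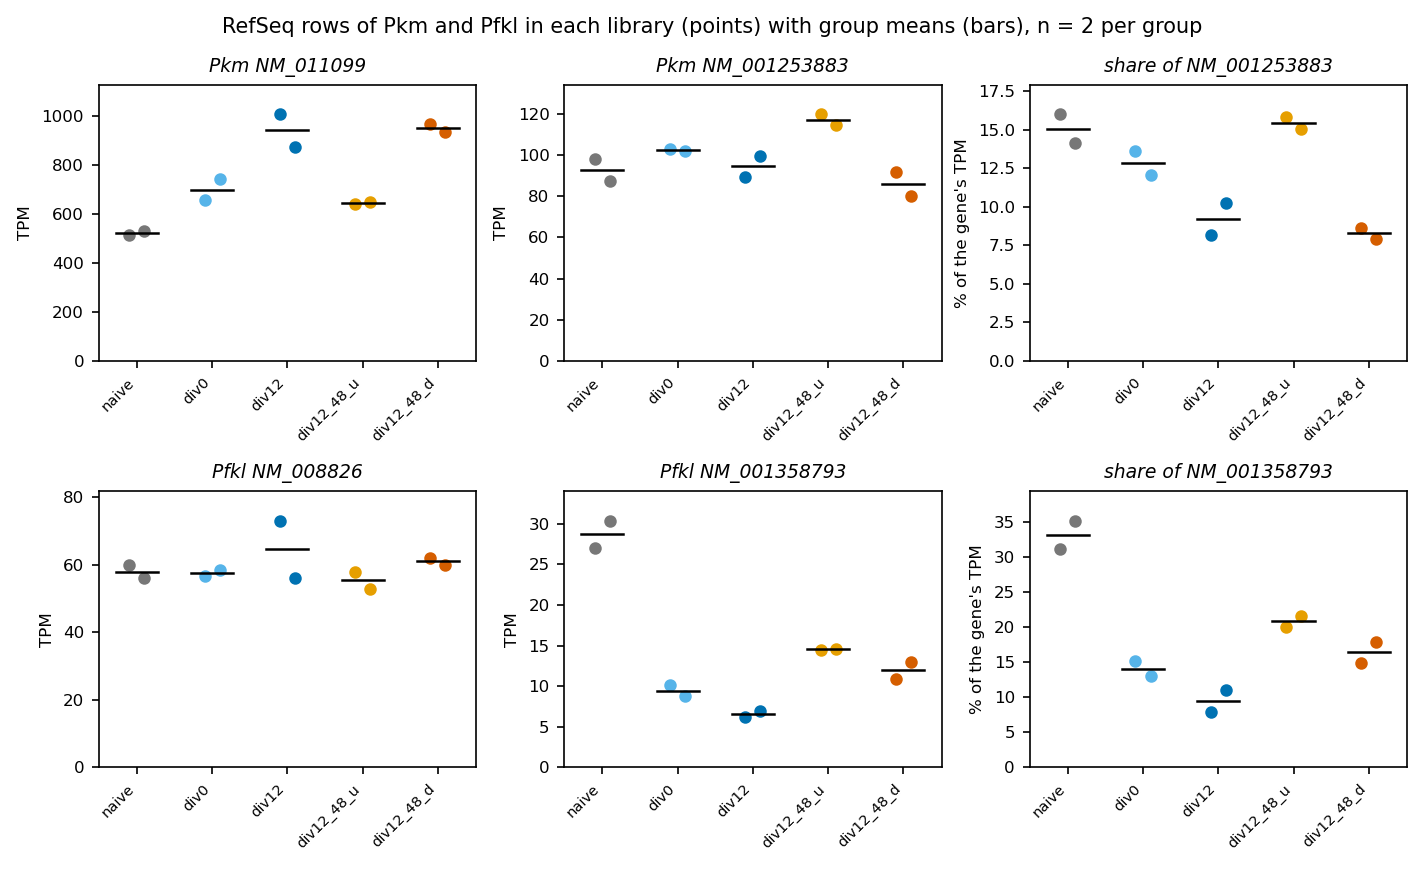
TPM of the RefSeq rows of Pkm and Pfkl (vertical axis, own scale per panel) in each library by group (horizontal axis), and the percent of the gene's TPM in its less abundant row; points are libraries and bars are group means. The M2 row of Pkm is highest in div12 and div12_48_d (875 to 1008 TPM). NM_001358793 of Pfkl falls from 27.1 and 30.4 TPM in naive to 6.23 and 6.94 TPM in div12.

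Other genes of the pathway were taken from lists by role. Of 21 listed genes for other steps and isoforms of glycolysis, 12 were in the table and 9 were tested. Eno1, the enolase that acts between Pgam1 and Pkm, was at 795 ± 60.9 TPM in naive, 737 ± 42.6 in div0 and 869 ± 35.1 in div12, and at 813 ± 46.1 TPM in div12_48_u and 887 ± 10.9 in div12_48_d (SD, n = 2), and passed in none of the main comparisons. Its Phase II division difference was 0.13 (95% interval -0.07 to 0.32). Between div12 and naive 2 of the 9 were higher, the isoforms Aldoc (0.42, adjusted p = 0.0234) and Eno2 (0.80, adjusted p = 0.0103). Of all genes 19.4% were higher in that comparison. Between div12 and div0 none passed, and between div12_48_d and div12_48_u 1 did, hexokinase Hk2 at 0.73 (adjusted p = 0.0446). The shares of all genes that passed there were 8.76% and 25.6%.

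Carriers of glucose and lactate moved both ways. All 9 were tested, with 2 higher and 6 lower in div12 than in naive, where 19.4% of all genes were higher and 47.5% lower. Of the 6 lower calls, those of Slc2a4, Slc2a8 and Slc16a3, named after their values were seen, were lost with quantile normalization (adjusted p = 0.856, 0.231 and 0.117). The hexose carrier Slc2a6 was at 34.9 ± 0.991 TPM in naive and 144.5 ± 9.35 in div12 (SD, n = 2), a rise of 2.02 (adjusted p = 7.18e-06), and Bsg, the chaperone of the lactate carriers, rose by 0.27 (adjusted p = 0.0442). The glucose carriers Slc2a1 and Slc2a3 fell, by 1.22 and 0.61 on the log2 scale. Between div12_48_d and div12_48_u 3 were higher and 2 lower: Slc16a1, which carries lactate, rose by 1.02 (adjusted p = 0.0326), Slc2a6 by 0.48 and Bsg by 0.39, while Slc2a3 fell by 0.49 (adjusted p = 0.00774) and Slc16a7, named here after its values were seen, by 0.50. Of all genes, 12.2% were higher and 13.4% lower in that Phase II comparison. Between div12 and div0 none of the 9 passed.

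Genes that regulate glycolysis were mostly lower in div12 than in naive cells, and less uniformly so in the other activated groups. In div0, div12_48_u and div12_48_d, 5, 3 and 7 of 9 tested genes were lower than in naive. Over all genes 39.6%, 27.2% and 40.6% were lower in the same order. For div12_48_u the median of the list was -0.13, beside -0.11 over all genes. Of 9 tested, 0 were higher and 8 lower in div12 than in naive, where 47.5% of all genes were lower, the median over all genes was -0.35 and that of the list -0.62. Of the 8 calls, those of Tigar, Max and Mtor were lost with median-ratio scaling (adjusted p = 0.0707, 0.257 and 0.524), and those 3 and Egln1 with quantile normalization (0.216, 0.0856, 0.554 and 0.0712). Tigar and Mtor are named here after their values were seen. Txnip, which restrains glucose uptake, was at 1544 and 1098 TPM in naive and 280 and 336 in div12, a change of -2.08 (adjusted p = 5.75e-05). Myc stood at 1028 and 429 TPM in naive, 177 and 202 in div0 and 174 and 125 in div12. It changed by -2.16 from naive to div12 (adjusted p = 7.09e-04). Immediate early genes were also lower in that comparison (8 of 8 tested), and a link to Myc was not tested. Hif1a changed by -0.78 (adjusted p = 3.64e-04) and Max, the partner of Myc, by -0.46 (adjusted p = 0.00499). Between div12 and div0 none passed. Between div12_48_d and div12_48_u Egln1, a hydroxylase that marks Hif1a for breakdown, was lower by a change of -0.41 (adjusted p = 0.0475). Of all genes 13.4% were lower in that Phase II comparison. From div12 to div12_48_u, 7 of the 9 regulators were higher and 0 lower, where 27.7% of all genes were higher and 13.6% lower. The list median was 0.42, beside 0.16 over all genes. The calls of Hif1a, Arnt, Max and Txnip were lost there with median-ratio scaling, and those of Hif1a, Arnt and Max with quantile normalization.

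Pyruvate entry into mitochondria is the branch that competes with Ldha, and 7 of its 14 listed genes were tested. Between div12 and naive 4 were higher: the carrier subunit Mpc1 (0.64, adjusted p = 0.0391), the dehydrogenase subunits Pdha1 (0.46, adjusted p = 5.57e-04) and Dld (0.31, adjusted p = 0.00794), and the inhibitory kinase Pdk3 (1.23, adjusted p = 8.28e-06). The 1 lower gene was the kinase Pdk1 (-1.21, adjusted p = 4.47e-05), named here after its values were seen. Of all genes 19.4% were higher and 47.5% lower. Pdha1, Pdk3 and Pdk1 passed in both division comparisons and in one direction each, where 8.76% and 25.6% of all genes passed. Pdha1 was higher by 0.46 in div12 than in div0 and by 0.31 in div12_48_d than in div12_48_u, Pdk3 by 0.47 and 0.83, and Pdk1 was lower by changes of -0.62 and -0.73.

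Pentose phosphate genes (4 of 10 tested) held 1 higher and 1 lower in div12 against naive, Pgd (0.32, adjusted p = 0.0318) and H6pd (-0.68, adjusted p = 0.0191), and 1 higher in div12_48_d against div12_48_u, Prps1 (0.34, adjusted p = 0.0387). Of 3 tested genes of gluconeogenesis and the glycerol branches, 1 was lower in div12 than in naive, Gpd1l (-1.92, adjusted p = 1.11e-05). None of them passed in either division comparison. Beside both lists, 19.4% of all genes were higher and 47.5% lower in div12 against naive. In div12_48_d against div12_48_u these shares were 12.2% and 13.4%. In div12 against div0, the counts at an unadjusted p under 0.05 for the lists in which none passed were 2 of 9 other glycolytic genes, 5 of 9 carriers, 3 of 9 regulators, 2 of 4 pentose phosphate genes and 1 of 3 gluconeogenesis genes, beside 1267 of 4427 genes in all.

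Many of these calls were lost when 1 library was left out, in some cases a library outside the comparison. In div12 against naive, Aldoc, Bsg and Pgd were lost without naive replicate 1 (adjusted p from 0.102 to 0.265), Mpc1 and H6pd without naive replicate 2 (0.0980 to 0.166), 4 genes without div12 replicate 1 (0.0798 to 0.149), 5 without div12 replicate 2 (0.0616 to 0.149), and Bsg and Mpc1 without any of the other 6 libraries (0.0525 to 0.0700), with Pgd also without either div0 library (0.0503 and 0.0504). The calls of Max and H6pd were lost with both scalings (0.0856 to 0.257). In div12 against div0, Pdha1, Pdk3 and Pdk1 were all lost without div0 replicate 1, div0 replicate 2 or div12 replicate 2 (0.0857 to 0.214), and Pdk1 without div12 replicate 1 (0.0566). In div12_48_d against div12_48_u, 8 of the 10 genes named by rule were lost without div12_48_d replicate 1 (0.0639 to 0.250), 7 without div12_48_u replicate 2, 6 without div12_48_u replicate 1, 4 without div12_48_d replicate 2, 5 and 4 without a div0 library and Prps1 without a div12 library. Pdk3 and Pdk1 kept their Phase II call in every alternative run.

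**Figure D5:**
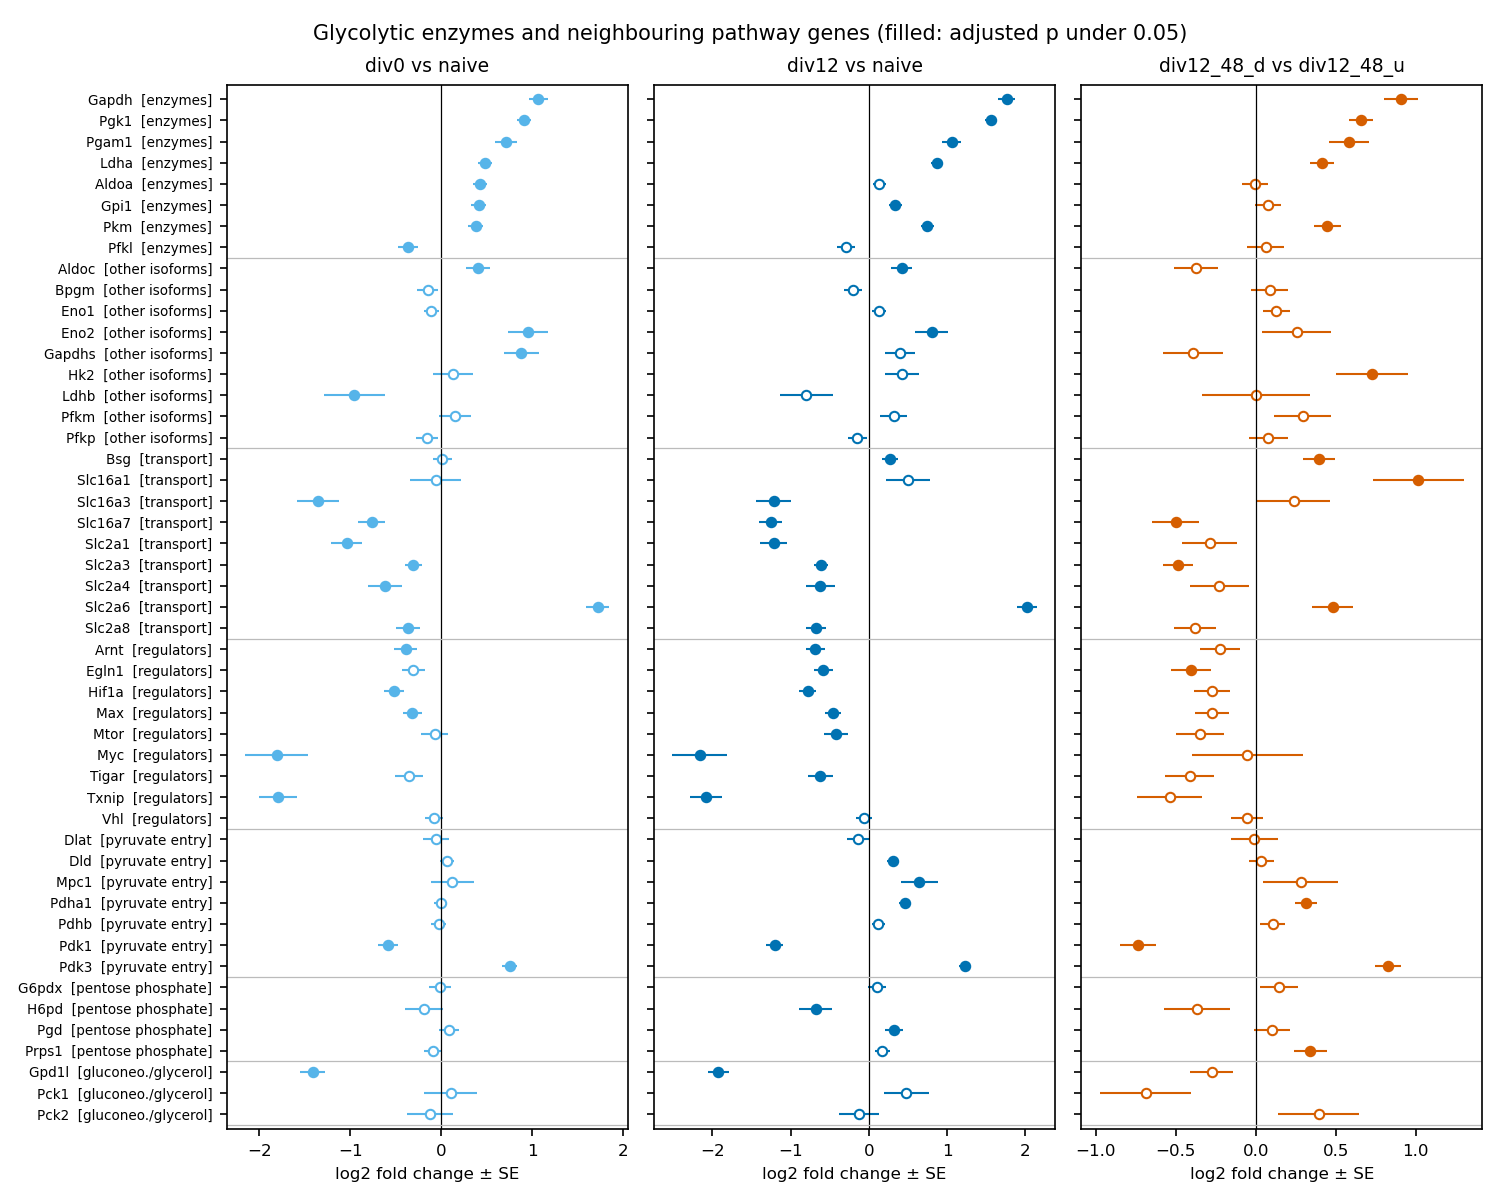
Log2 fold change of TPM + 1 (horizontal axis) of each tested gene of the glycolysis lists (vertical axis, by list) for div0 against naive, div12 against naive and div12_48_d against div12_48_u; points are limma estimates with bars of 1 SE, filled where the adjusted p is under 0.05. Gapdh and Pgk1 lie furthest right among the 8 enzymes in all 3 panels, all 9 regulators lie left of 0 in div12 against naive, and Pdk3 and Pdk1 lie on opposite sides of 0 (1.23 and -1.21 in div12).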

How the data were processed

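The members and the gene lists were chosen with earlier results of these data known. The authors deposited 1 table of TPM per RefSeq transcript, with 13128 rows of values in 10 libraries. Tools listed in the submitters' processing notes, without roles, were HISAT2, Salmon, featureCounts, HTSeq and DESeq2, with the build mm10. Which of them made the TPM values, how reads mapping to several places were treated and whether strand was used were not given in the sources used here. Libraries were made from 100 ng of total RNA and read as 50 bp single ends, per the labels' protocols.

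Rows were summed by symbol (63 rows without a usable symbol left out, at most 0.379% of TPM), and log2(TPM + 1) was fitted with limma 3.58.1 in R 4.3.3 (trended variance, 5 groups, 10 libraries, 5 residual degrees of freedom, two-sided, Benjamini-Hochberg over 4427 genes). Such fold changes understate those of low genes. The same fit was run on 8174 RefSeq rows and, chosen after seeing the data, on the log2 ratio of the most abundant row to the other rows of 1881 genes. Tables were prepared with Python 3.11.15, pandas 2.3.3 and numpy 2.4.6, and the fit was tested on simulated data. TPM holds no counts, so depth is unknown and no counting interval can be given. Replicates are separate mouse pools in Phase I, while the spread between Phase II replicates may be technical. The fit pools the spread of all 10 libraries, so this bears on every p-value.

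Named were all 8 members, up to 4 called genes per list and comparison with the highest mean TPM, and the 3 genes nearest in profile to each member, of which 2 are not reported here. Alternatives were pseudocounts of 0.1 and 5, no filter, a 5 TPM filter, median-ratio scaling, quantile normalization, the compared groups alone, no naive group, a replicate block, the most abundant row, and each library left out. The recomputation of pathway genes was added after seeing the data.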

Additional observations from a re-analysis of the deposited data

How the results depend on the processing

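Of the 8 glycolytic genes, 8 passed in div0 against naive, 6 in div12 against naive, 4 in div12 against div0, 5 in div12_48_d against div12_48_u, 6 in div12_48_u against div12, 2 in div12_48_d against div12, and 0 in the difference between phases. With 1 library left out at a time these counts ran from 6 to 8, 6 to 7, 0 to 5, 2 to 5, 5 to 6, 1 to 2 and 0 to 0. Where 1 library of a group was left out, the remaining one was taken to vary as samples of the other groups do. For div12_48_d against div12 the count was 1 with quantile normalization, with the compared groups alone, with the replicate block and with the most abundant RefSeq row, and the cause was not tested. The replicate block also took div12 against div0 from 4 to 3, with Pkm at an adjusted p of 0.0573. Samples with the same replicate number did not clearly deviate together (correlations of -0.24 to 0.20, with 3 of 10 pairs over 0.1). The lowest value was between div0 and div12 and the highest between div12_48_u and div12_48_d. A single replicate difference per group cannot show whether samples with the same number share a pool or a culture. Among values for single genes by symbol, 1614 kept their side of the threshold, 94 lost and 20 gained a call, and none reversed. For RefSeq rows these were 2876, 163 and 36. Among called pathway genes 1281 kept and 317 lost the call, and 2 reversed, the cause not tested: Slc2a4 in div12 against naive was 0.0419 with quantile normalization (-0.62 as reported in the fit above), and Arnt in div0 against naive was 0.17 with its most abundant row (-0.39 otherwise). TPM carries no depth, so no floor can be given for low rows.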
